A study of Mus musculus with 12 samples.

Results

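Serine synthesis and the amino acid transporters were followed in AML12 cells through 10 genes chosen by name for their function. They were the transporter genes Slc3a2, Slc7a5, Slc1a5, Slc38a2 and Slc7a1, the serine synthesis genes Phgdh, Psat1 and Psph, and the mitochondrial folate genes Shmt2 and Mthfd2. The choice was made with earlier results of these data known. Counts over the 10, in any comparison, thus describe these genes and do not test them as a set. The table holds 24824 genes by symbol, of which 10615 averaged 1 FPKM or more over the libraries and were tested, and all 10 members were among these. FPKM relates the fragments of a gene to its length and to the library total, so levels of different genes can be set side by side as far as the lengths used are right, which is in doubt for Slc3a2 and Psph.

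Cells take up amino acids through membrane carriers and can also make serine from a glycolytic intermediate. Phgdh, Psat1 and Psph catalyse these steps in turn, and Shmt2 and Mthfd2 then pass the carbon of serine into folate-bound units within mitochondria. The transcription factor ATF4, which is translated more when cells are short of amino acids or under other stresses, is known to drive many of these genes. In liver, serine, glycine and folate metabolism also feed glutathione and methionine pathways.

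The AML12 line derives from mouse liver and is kept as an immortalized hepatocyte model. Cells of group A were left untreated. Group B received 300 μM CuCl2 with 40 nM elesclomol (ES), an ionophore that carries copper into cells (Cu/ES). Group C received the same Cu/ES together with 1000 μM taurocholic acid (TCA), a conjugated bile acid, whereas cells of group D were given only the 1000 μM TCA. Exposure lasted 24 h throughout. Each group had 3 libraries. No label says whether these came from separate cultures, so p-values measure the spread between these libraries, which may be technical. The 4 groups allow the effect of TCA to be measured without Cu/ES (group D vs. A) and with it (group C vs. B), and the effect of Cu/ES without TCA (group B vs. A) and with it (group C vs. D).

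Recovered library totals were between 38298857 and 39782142 reads in groups A and D and between 29115011 and 34912748 in groups B and C, and each member had between 1951 and 40099 reads in a library. The 10 most abundant genes took 3.36% to 3.60% of the reads in groups A and D and 9.10% to 11.3% in groups B and C. The median over all 10615 genes was −1.10 on the log2 scale in group B vs. A and −1.13 in group C vs. D, so a member that kept its FPKM stood above most genes. Scaling each library by its median ratio to the other libraries brought these medians to 0.01 and −0.0012, and values on that scale are given beside those in FPKM where the direction differs. In bulk RNA, fewer cells of a kind and less RNA per cell cannot be told apart. Of the 10 hepatocyte markers chosen, 8 were in the table and 3 averaged 1 FPKM or more in group A, with Krt8 at 344 and Krt18 at 285, while Alb and Hnf4a were at 0 there and at most 0.0463 and 0.0192 in any group mean. The mesenchymal gene Vim stood at 2080 FPKM in group A and 168 in group C. Of the 5 immune markers, Ptprc, Adgre1, Cd3e and Lyz2 were at or under 0.0766 in every group mean. The fifth, Cd68, stood at 92.2, 27.2, 31.2 and 33.0 FPKM in groups A to D.

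All 10 genes rose with TCA alone. In group D vs. A, the log2 fold change ran from 0.31 for Psat1 to 0.65 for Psph, and the adjusted p from 1.21e-04 to 0.0036 (limma, Benjamini-Hochberg). Over all genes tested, 10.5% were higher and 11.5% lower by the same rule. In each of the 10 genes the lowest library of group D lay above the highest library of group A, a pattern found in 20.7% of all genes tested. The members' median was 0.51, beside −0.01 for all genes tested, and none of the 10 passed a log2 fold change of 1, as 0.0659% of all genes did. All 220 refits of these 10 values under other settings kept the direction and the call. Between the same 2 groups the summed FPKM of 5 immune markers was 72.5 to 102 in group A and 25.5 to 37.0 in group D, nearly all of it the macrophage-associated gene Cd68, with Adgre1 and Cd3e at 0 in both. The summed cholangiocyte markers were 920.2 to 1004 in group A and 743 to 790.3 in group D, the fibroblast markers 2111 to 2327 and 1807 to 1929, and the hepatocyte markers 599 to 651 and 701 to 721. Most of the cholangiocyte sum was Spp1, at 673 in group A and 560 in group D, and most of the fibroblast sum Vim, at 2080 and 1714. Most of the hepatocyte sum was Krt8, at 344 and 400, and Krt18, at 285 and 310, while Alb and Hnf4a were at 0 in both groups. The part of these differences in the members' values was not tested.

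**Figure D1:**
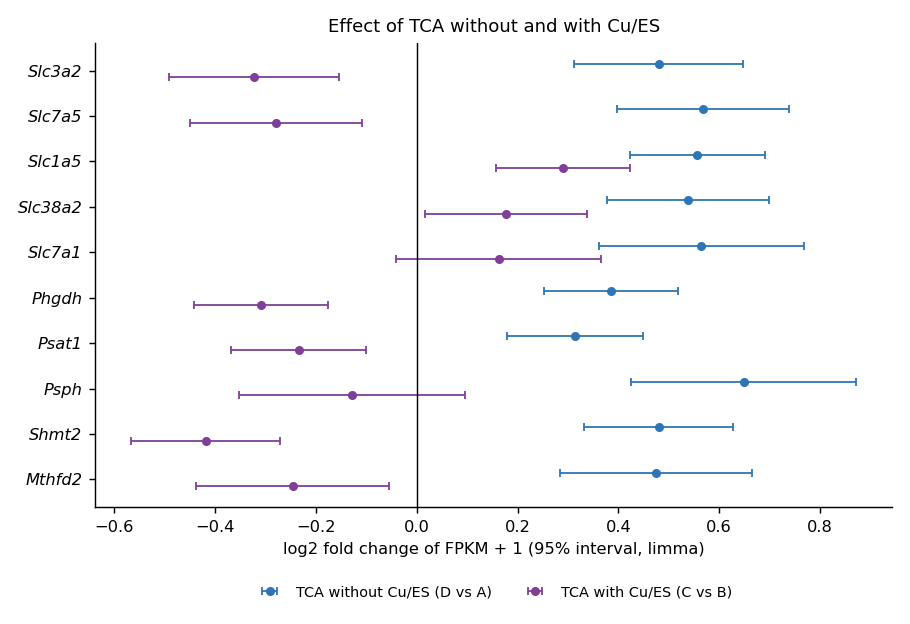
Log2 fold changes of the 10 genes with TCA, in group D vs. A without Cu/ES and in group C vs. B with Cu/ES, from limma on log2(FPKM + 1) with 95% intervals from 3 libraries in each group. All 10 lie above 0 in group D vs. A, from 0.31 to 0.65, while in group C vs. B they lie between −0.42 and 0.29.

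Because the 10 genes rose together with TCA, the sequence before their starts was read from RefSeq promoter windows of GRCm38.p6, each from 250 bases before the start to 50 after it. The table held windows for 8 members, 10 windows in all, and none was matched for Slc7a5 or Slc1a5. The C/EBP-ATF response element, searched as TGATGNAA on both strands, was in 0 of the 8 members and in 3.97% of all 32851 windows. The E-box CACGTG was in 0 of the 8 and in 7.15% of all windows. The antioxidant response element core TGACNNNGC was in Phgdh, Psph, Slc38a2 and Slc7a1 and in 12.4% of all windows. A pair of inverted heat shock units, searched as GAANNTTC or TTCNNGAA, was in Psph, Shmt2 and Slc7a1 and in 15.1%. The metal response element core, searched as TGCACNC or TGCGCNC, was in Psat1 and in 25.7%. These are matches of letters and not measured binding sites. The sequences below run 5′ to 3′ along the gene and end at the base before its start, with the matches in capitals. They are shown for 1 member of each matched motif, with a further member for the antioxidant core. All 4 lie on the minus strand, Phgdh at chr3:98339970-98340219, Slc38a2 at chr15:96699729-96699978, Shmt2 at chr10:127522445-127522694 and Psat1 at chr19:15924623-15924872.
Phgdh, antioxidant core: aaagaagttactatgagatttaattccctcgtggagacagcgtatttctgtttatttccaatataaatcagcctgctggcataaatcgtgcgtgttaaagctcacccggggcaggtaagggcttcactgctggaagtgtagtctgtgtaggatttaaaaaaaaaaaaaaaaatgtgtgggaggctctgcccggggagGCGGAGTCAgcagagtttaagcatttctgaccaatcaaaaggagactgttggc
Slc38a2, antioxidant core: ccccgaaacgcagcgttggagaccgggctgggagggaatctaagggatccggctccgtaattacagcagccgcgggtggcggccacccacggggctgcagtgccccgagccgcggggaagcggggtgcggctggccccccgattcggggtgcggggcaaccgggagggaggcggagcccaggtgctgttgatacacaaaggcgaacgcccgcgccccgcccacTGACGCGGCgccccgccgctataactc
Shmt2, inverted heat shock units: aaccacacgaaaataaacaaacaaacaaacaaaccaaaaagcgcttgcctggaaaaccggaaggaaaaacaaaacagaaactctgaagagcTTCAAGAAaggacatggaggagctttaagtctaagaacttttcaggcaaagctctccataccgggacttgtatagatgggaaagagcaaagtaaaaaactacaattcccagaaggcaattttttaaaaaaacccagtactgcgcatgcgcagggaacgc
Psat1, metal response core: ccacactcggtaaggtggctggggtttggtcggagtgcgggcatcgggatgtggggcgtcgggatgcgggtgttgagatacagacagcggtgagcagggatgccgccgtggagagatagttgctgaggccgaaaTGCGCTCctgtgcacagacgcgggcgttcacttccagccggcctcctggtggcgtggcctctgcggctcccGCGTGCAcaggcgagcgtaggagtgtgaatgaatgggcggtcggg

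Slc7a5 and Slc3a2 encode the light and heavy chains of the LAT1 transporter, which carries large neutral amino acids such as leucine. The light chain forms the transport path and the heavy chain, also called 4F2hc, brings it to the cell surface. Slc7a5 was at 126, 112 and 119 FPKM in group A and at 53.0, 57.8 and 45.6 in group B, while group C had 44.1, 42.1 and 41.6 and group D had 176, 172 and 183. No neighbouring groups overlapped, in the order D, A, B, C. Slc7a5 fell with Cu/ES by 1.18 on the log2 scale in group B vs. A (SE 0.08, adjusted p = 2.29e-09) and fell by 2.03 in group C vs. D (SE 0.08, adjusted p = 5.93e-12; limma, Benjamini-Hochberg). It was the only member to fall past a log2 fold change of 1 in group B vs. A, as 53.0% of all genes did. On the median-ratio scale its change was 0.14 in group B vs. A (adjusted p = 0.117) and −0.66 in group C vs. D (adjusted p = 3.11e-06).

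Slc3a2 moved the other way in group B vs. A. It was at 35.5, 30.4 and 35.9 FPKM in group A and at 45.2, 44.7 and 44.7 in group B, while group C had 36.3, 35.5 and 35.2 and group D had 51.0, 42.7 and 49.3. Groups B and D were the high groups and overlapped, and groups A and C were the low groups and also overlapped. Slc3a2 rose by 0.40 on the log2 scale in group B vs. A (SE 0.08, adjusted p = 2.32e-04) and fell by 0.41 in group C vs. D (adjusted p = 1.96e-04, limma). With FPKM scaled to a common sum (TPM) the difference of group B vs. A was 0.04 (adjusted p = 0.682), and on the median-ratio scale group C vs. D was 0.95 rather than lower. Over both TCA levels its mean difference with Cu/ES was −0.0036 on the log2 scale (exact permutation test within TCA level, two-sided, p = 1).

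**Figure D2:**
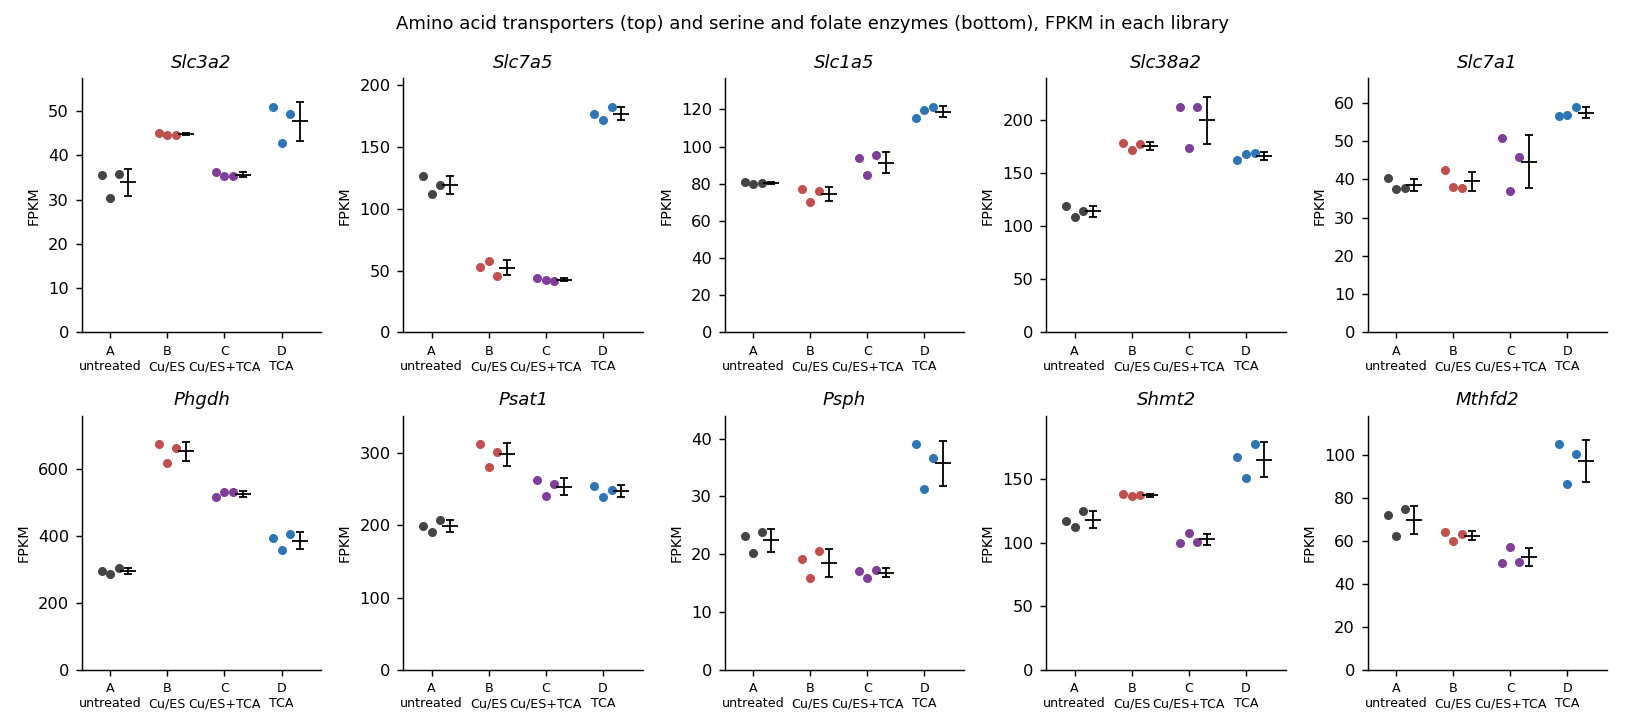
FPKM of the 10 genes in each library on linear axes that start at 0, with a dot per library, 3 in each of groups A to D, and the mean ± SD beside them. Slc7a5 is lowest in groups B and C, at 41.6 to 57.8 FPKM, Phgdh is highest in group B, at 621 to 676 FPKM, and every gene is higher in group D than in group A.

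The ratio of light to heavy chain needs no library scaling, since both values come from the same library. This and the other ratios were chosen after the values were seen, so their p-values describe these pairs and do not test them. In groups A to D, Slc7a5 over Slc3a2 was 3.52 ± 0.192, 1.16 ± 0.136, 1.19 ± 0.0177 and 3.73 ± 0.283 (mean ± SD, n = 3). The ratio was lower in every library with Cu/ES than in every library without it. Over both TCA levels it differed by −1.62 on the log2 scale with Cu/ES (two-sided exact permutation test, p = 0.005, which is the lowest possible here, 0.014 after Benjamini-Hochberg adjustment over 14 tests of ratios). With TCA it differed by 0.06 (p = 0.345, exact permutation test). The absolute ratio rests on the gene lengths the authors used. The length behind the Slc3a2 values was 9333 bases, while its longest coding transcript in GENCODE vM21 has 2813 bases. On that length the mean of Slc3a2 in group A would be 113 FPKM in place of 33.9. FPKM ratios between groups do not depend on this length.

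Slc1a5 encodes ASCT2, an exchanger of glutamine, serine and other small neutral amino acids, and Slc38a2 encodes SNAT2, a sodium-coupled carrier of small neutral amino acids whose gene is known to respond to amino acid shortage. Slc1a5 was at 80.9, 80.0 and 80.4 FPKM in group A and at 77.0, 70.2 and 76.2 in group B, while group C had 93.8, 84.8 and 95.3 and group D had 115, 120 and 121. Its order was D, C, A, B with no overlap between neighbours. Slc1a5 rose when TCA was added to Cu/ES, by 0.29 on the log2 scale in group C vs. B (SE 0.06, adjusted p = 0.00185, limma). In FPKM no other member passed upward there, while on the median-ratio scale Slc38a2 and Slc7a1 also did. In group B vs. A its difference was −0.11 with an adjusted p of 0.0996, which fell to 0.0469 when group C replicate 2 was left out of the fit. The scaling decided this value, which was −0.48 with TPM (adjusted p = 3.67e-05) and 1.21 on the median-ratio scale (adjusted p = 7.47e-11). It fell by 0.38 in group C vs. D (adjusted p = 4.08e-05), and it was higher by 0.997 on the median-ratio scale. Slc7a5 over Slc1a5, the pair of leucine importer and glutamine exchanger, was 1.48, 0.703, 0.468 and 1.49 in groups A to D. That ratio differed by −1.38 on the log2 scale with Cu/ES (exact permutation test, p = 0.005, adjusted p = 0.014).

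Slc38a2 was at 120, 109 and 114 FPKM in group A and at 179, 172 and 177 in group B, while group C had 212, 174 and 213 and group D had 162, 168 and 169. It was lowest without either agent, and groups B and C overlapped. Slc38a2 rose by 0.62 on the log2 scale in group B vs. A (SE 0.07, adjusted p = 1.86e-06) and by 0.26 in group C vs. D (SE 0.07, adjusted p = 0.00486, limma). The second of these did not hold with TPM, at −0.031, or with quantile normalization, at −0.042, while on the median-ratio scale it was 1.64. In group C vs. B its difference was 0.18 (adjusted p = 0.0695), and group C replicate 2 decided this call, since without it the difference was 0.27 (adjusted p = 0.00104). It also passed on the median-ratio scale, at 0.24 (adjusted p = 0.00814), and with TPM, at 0.25 (adjusted p = 0.045).

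Slc7a1 encodes CAT1, the carrier of arginine and lysine. It was at 40.4, 37.6 and 37.6 FPKM in group A and at 42.4, 38.1 and 37.8 in group B, while group C had 50.7, 37.0 and 45.9 and group D had 56.6, 56.7 and 59.0. Only group D stood clear of the others. The difference in group B vs. A was 0.03 on the log2 scale, with an interval from −0.17 to 0.23 (adjusted p = 0.756, limma). With TPM it was −0.34 (adjusted p = 0.0152), and on the median-ratio scale 1.34. Slc7a1 fell by 0.37 in group C vs. D (adjusted p = 0.0019) and was higher by 0.99 on the median-ratio scale. In group C vs. B it differed by 0.16 (adjusted p = 0.182), by 0.29 without group C replicate 2 (adjusted p = 0.00402) and by 0.22 on the median-ratio scale (adjusted p = 0.0357). Group C had the widest spread of Slc7a1, with a coefficient of variation of 15.6%, against 2.32% in group D.

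Phgdh, which catalyses the committed step of serine synthesis, was the most abundant member and rose most with Cu/ES. It was at 296, 288 and 304 FPKM in group A and at 676, 621 and 664 in group B, while group C had 517, 532 and 533 and group D had 394, 359 and 408. The groups stood in the order B, C, D, A with no overlap between neighbours. Phgdh rose by 1.14 on the log2 scale in group B vs. A (SE 0.06, fold 2.20, adjusted p = 2.04e-10) and by 0.45 in group C vs. D (SE 0.06, adjusted p = 7.35e-06, limma). In FPKM it was the only member to rise past a log2 fold change of 1 in group B vs. A, as 10.1% of all genes did. On the median-ratio scale 9 of the 10 did, with Phgdh highest at 2.48. With TPM its rise was 0.77, and the lowest value under the alternatives was 0.42. In group C vs. B it fell by 0.31 (adjusted p = 0.00115). The rise in group C vs. D turned to −0.18 (adjusted p = 0.0224) with quantile normalization and was 1.83 on the median-ratio scale.

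Psat1, the transaminase of the next step, followed the same order with smaller differences. It was at 200, 190 and 207 FPKM in group A and at 313, 281 and 302 in group B, while group C had 262, 241 and 257 and group D had 255, 239 and 250. Groups C and D overlapped. Psat1 rose by 0.58 on the log2 scale in group B vs. A (SE 0.06, adjusted p = 4.98e-07) and fell by 0.23 in group C vs. B (adjusted p = 0.00759, limma). With quantile normalization the former was 0.09 and did not pass (adjusted p = 0.207), and with TPM the latter did not pass (adjusted p = 0.0832). In group C vs. D its difference was 0.03, with an interval from −0.10 to 0.17 (adjusted p = 0.627), and −0.26 with TPM (adjusted p = 0.00314). On the median-ratio scale that difference was 1.42 (adjusted p = 4.94e-11).

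Psph, the phosphatase of the last step, had the lowest deposited FPKM of the 10 and did not follow the enzymes before it. It was at 23.1, 20.1 and 23.9 FPKM in group A and at 19.2, 15.8 and 20.5 in group B, while group C had 17.1, 15.9 and 17.3 and group D had 39.1, 31.3 and 36.7. Group D was clear of the others, while groups A and B overlapped, as did B and C. Psph fell by 1.04 on the log2 scale in group C vs. D (SE 0.10, adjusted p = 2.11e-07) and by 0.27 in group B vs. A (SE 0.10, adjusted p = 0.0258, limma). The fall in group B vs. A did not pass without group A replicate 1 (adjusted p = 0.0739), without group A replicate 3 (0.0948) or without group B replicate 2 (0.141). Psph was higher on the median-ratio scale, by 0.29 in group C vs. D and by 1.01 in group B vs. A. The length behind its values was 3922 bases, against 1733 in its longest coding transcript, on which its mean in group A would be 50.7 FPKM in place of 22.4, above Slc7a1 at 39.6 on the same basis.

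Ratios between these enzymes, also chosen after the values were seen, separated the libraries by Cu/ES. Other pairs of genes were not counted, so how common such a separation is among pairs is not known. Of all genes tested, 20.1% were higher and 72.0% lower in group B vs. A. The p-values of the ratios describe pairs picked from these data and do not test them. In groups A to D, Phgdh over Psat1 was 1.49 ± 0.0251, 2.19 ± 0.024, 2.08 ± 0.122 and 1.56 ± 0.066 (mean ± SD, n = 3). Psat1 over Psph was 8.92 ± 0.459, 16.3 ± 1.55, 15.1 ± 0.257 and 6.98 ± 0.568 in the same order of groups. In both ratios the lowest library with Cu/ES lay above the highest library without it. The log2 difference with Cu/ES was 0.49 for the former and 0.99 for the latter (exact permutation test, p = 0.005 and adjusted p = 0.014 for each). With TCA, Psat1 over Psph differed by −0.23 (p = 0.02, adjusted p = 0.04, exact permutation test) and Phgdh over Psat1 by −0.0016 (p = 0.96).

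**Figure D3:**
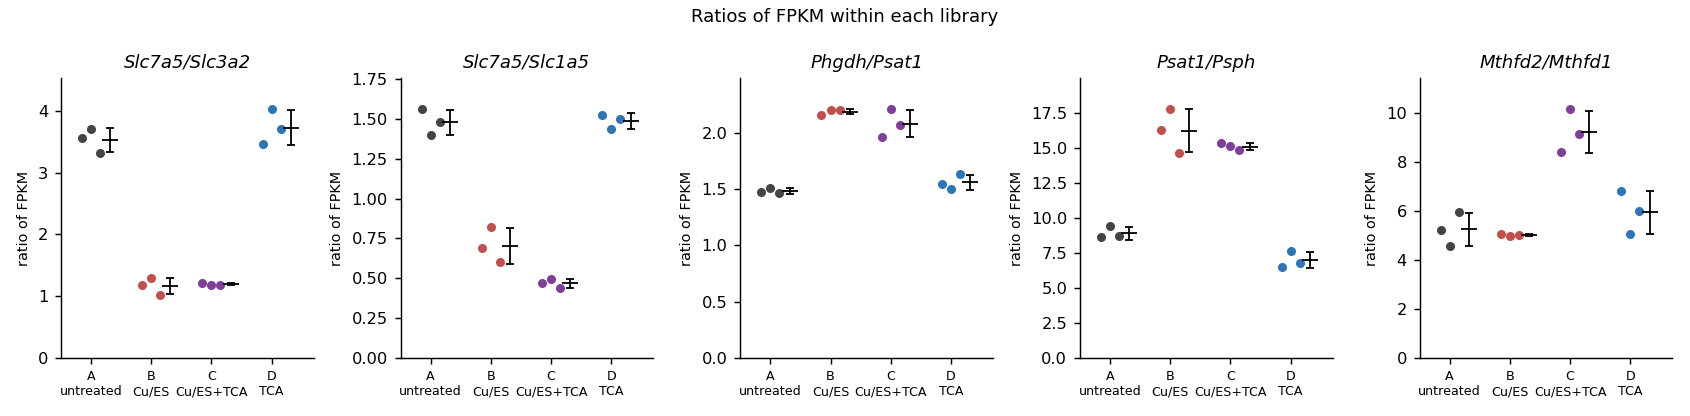
Ratios of FPKM between pairs of genes within each library on linear axes that start at 0, with a dot per library, 3 in each of groups A to D, and the mean ± SD beside them. Slc7a5 over Slc3a2 lies at 3.32 to 4.02 in groups A and D and at 1.02 to 1.29 in groups B and C, while Psat1 over Psph lies at 6.53 to 9.45 and at 14.7 to 17.8.

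Shmt2, which splits serine into glycine and a folate-bound carbon unit in mitochondria, was at 117, 112 and 125 FPKM in group A and at 139, 136 and 137 in group B, while group C had 100, 107 and 100 and group D had 168, 151 and 178. Its order was D, B, A, C with no overlap between neighbours. Shmt2 rose by 0.22 on the log2 scale in group B vs. A (adjusted p = 0.00786) and fell by 0.42 in group C vs. B (SE 0.07, adjusted p = 2.63e-04), the largest fall of the 10 in that comparison. It fell by 0.68 in group C vs. D (adjusted p = 2.34e-07, limma). The difference in group B vs. A was −0.15 with TPM (adjusted p = 0.0354) and −0.04 with quantile normalization. On the median-ratio scale Shmt2 was higher by 0.70 in group C vs. D.

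Mthfd2, which oxidizes the mitochondrial folate unit in the next step, was at 72.0, 62.3 and 74.7 FPKM in group A and at 64.0, 59.9 and 63.1 in group B, while group C had 49.8, 57.3 and 50.2 and group D had 105, 86.4 and 100. Groups A and B overlapped, and groups C and D lay below and above them. Mthfd2 fell by 0.88 on the log2 scale in group C vs. D (SE 0.09, adjusted p = 2.49e-07) and by 0.25 in group C vs. B (adjusted p = 0.037, limma). The latter call was lost without any 1 of group B replicates 1 and 3 and group C replicates 1 and 3, at adjusted p values from 0.0905 to 0.117. In group B vs. A its difference was −0.15 (adjusted p = 0.111), −0.23 without group A replicate 2 (adjusted p = 0.0262) and −0.52 with TPM (adjusted p = 1.56e-05). On the median-ratio scale it was higher with Cu/ES, by 1.17 in group B vs. A and by 0.49 in group C vs. D.

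Mthfd2 over Shmt2 was 0.589, 0.453, 0.511 and 0.588 in groups A to D, a log2 difference of −0.29 with Cu/ES (exact permutation test, p = 0.005, adjusted p = 0.014). Both were also set against their cytosolic counterparts. Shmt2 over Shmt1 ran from 11.4 to 25.4 over the 12 libraries and differed by −0.0071 with Cu/ES (p = 0.97, exact permutation test). Mthfd2 over Mthfd1 was 5.24, 5.01, 9.23 and 5.95 in groups A to D, a log2 difference of 0.53 with TCA (exact permutation test, p = 0.02, adjusted p = 0.04). Group C was the high group. Mthfd1, which carries the cytosolic folate steps, fell by 1.01 in group C vs. B (adjusted p = 6.17e-07, limma), from 12.4 ± 0.377 to 5.69 ± 0.212 FPKM.

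Counted over the 10 genes, Cu/ES without TCA (group B vs. A) raised 5 genes, Phgdh, Slc38a2, Psat1, Slc3a2 and Shmt2, and lowered 2, Slc7a5 and Psph (limma, Benjamini-Hochberg). Over all genes tested, 20.1% were higher and 72.0% lower. With TPM 3 were higher, Phgdh, Slc38a2 and Psat1, and 6 lower, Slc7a5, Psph, Mthfd2, Slc1a5, Slc7a1 and Shmt2, where 15.4% and 77.7% of all genes were higher and lower. The members' median was 0.12 beside −1.10 for all genes. On the median-ratio scale 9 of the 10 were higher and none lower, where 44.0% of all genes were higher and 43.8% lower, and Slc7a5 was the member that did not pass. With TCA present, in group C vs. D, which shares no library with group B vs. A, Phgdh and Slc38a2 were higher and 7 were lower, with Psat1 not passing. Over all genes tested 20.9% were higher and 71.5% lower. The members' median was −0.39 beside −1.13. On the median-ratio scale 9 of the 10 were higher and Slc7a5 was lower, where 44.4% and 44.3% of all genes were higher and lower. Slc7a5 was the lowest of the 10 on either scale and in both comparisons.

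**Figure D4:**
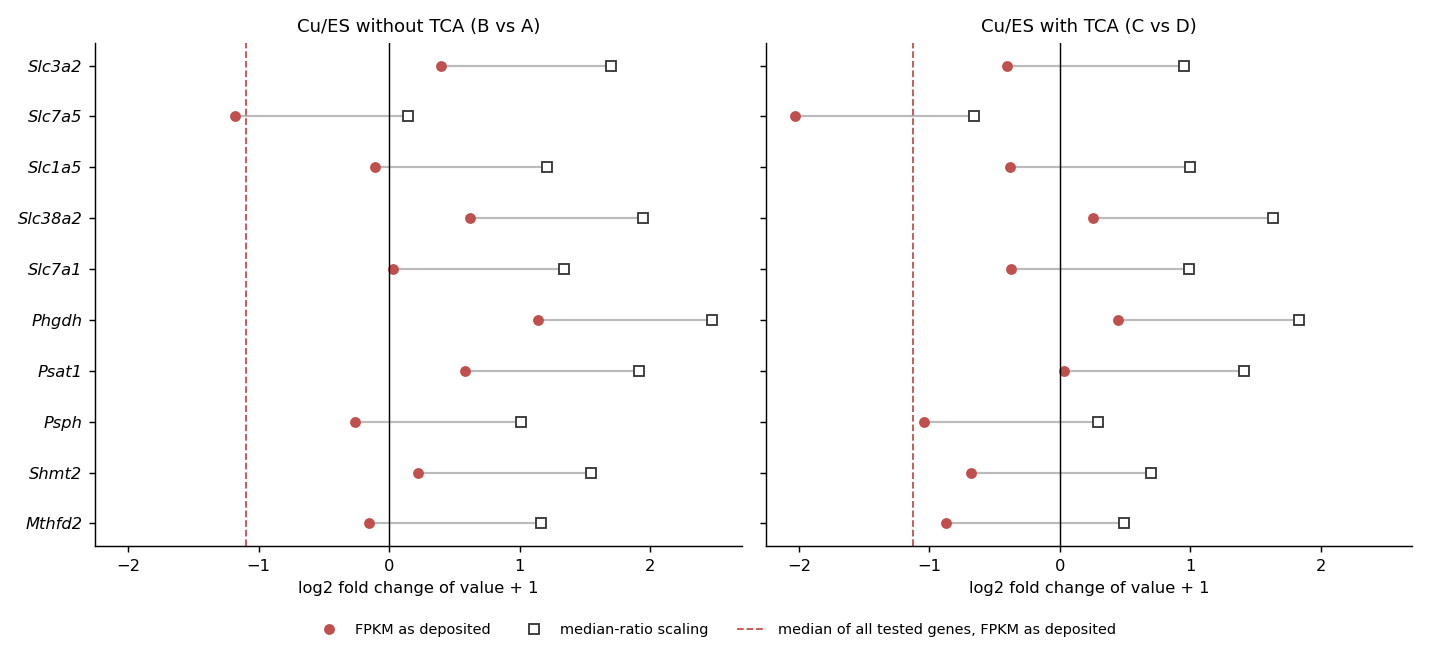
Log2 fold changes of the 10 genes with Cu/ES in group B vs. A and in group C vs. D, from limma on 3 libraries in each group, with filled circles for FPKM and open squares for the median-ratio scale. In FPKM, Phgdh is highest at 1.14 and 0.45 and Slc7a5 lowest at −1.18 and −2.03, and dashed lines mark the medians of all genes tested, −1.10 and −1.13.

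When TCA was added to Cu/ES (group C vs. B), Slc1a5 rose and 6 genes fell, namely Shmt2, Slc3a2, Phgdh, Slc7a5, Mthfd2 and Psat1, by 0.23 to 0.42 on the log2 scale (limma). Slc38a2, Slc7a1 and Psph did not pass. Over all genes tested, 20.4% were higher and 23.6% lower, and the members' median was −0.24 beside −0.03. With quantile normalization 4 members passed in place of 7, and with TPM 5, Slc7a5, Mthfd2 and Psat1 being lost under each. With TPM 2 were higher and 3 lower, beside 22.8% and 19.7% of all genes. On the median-ratio scale 3 were higher and 5 lower, beside 25.8% and 21.9%, and Mthfd2 was lost (adjusted p = 0.139). Slc7a5 did not pass without group B replicate 2 (adjusted p = 0.0559). The change with TCA in the presence of Cu/ES minus the change in its absence was below 0 for all 10 genes, from −0.27 for Slc1a5 to −0.90 for Shmt2, with adjusted p from 3.61e-05 to 0.0302 (limma interaction term). Over all genes tested 19.8% were lower and 17.7% higher by this rule. Slc1a5 (−0.19, adjusted p = 0.219), Slc38a2 (−0.28, adjusted p = 0.126) and Slc7a1 (−0.33, adjusted p = 0.155) did not pass with TPM. Leaving out 1 library at a time ended the call of Slc1a5 in 6 of 12 fits and that of Slc7a1 in 5 of 12, at adjusted p values up to 0.0753. Among the markers of other cell types, the summed fibroblast markers went from 2111 to 2327 FPKM in group A to 297 to 353 in group B, with 154 to 195 in group C. The summed endothelial markers went from 0.922 to 1.16 in group A to 6.76 to 10.5 in group B, with 16.5 to 19.7 in group C. The cholangiocyte markers, at 920.2 to 1004 in group A, were at 1240 to 1404 in group B and at 735 to 950.5 in group C. Most of the fibroblast sum was Vim, at 2080, 330 and 168 in groups A to C. Pecam1, at 6.85 in group B and 16.1 in group C, was most of the endothelial sum there. Most of the cholangiocyte sum was Spp1, at 673, 1190 and 682 in groups A to C. Krt19 fell from 268 in group A to 77.3 in group B, while Sox9 rose from 10.6 to 50.9. The summed immune markers were at 72.5 to 102, 24.5 to 29.1 and 23.9 to 36.6 in groups A to C. The summed hepatocyte markers were at 599 to 651, 256 to 306 and 185 to 225. Most of that sum was Krt8 and Krt18, while Afp rose from 2.56 in group A to 19.2 in group B. The part of these markers in the members' differences was not tested.

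Of 40 other genes of one-carbon and glycine metabolism 28 were tested. With TCA alone 5 were higher and 1 lower (limma), beside 10.5% and 11.5% of all genes. With Cu/ES 3 were higher and 21 lower in group B vs. A, beside 20.1% and 72.0% of all genes, and 3 were higher and 23 lower in group C vs. D, beside 20.9% and 71.5%. Scaled by median ratio, 11 were higher and 12 lower in group B vs. A, beside 44.0% and 43.8% of all genes. Mat2b, a regulatory subunit of the enzyme that makes S-adenosylmethionine, fell from 37.9 ± 1.82 FPKM in group A to 1.35 ± 0.0373 in group B. The mitochondrial serine carrier gene Sfxn1 fell from 38.8 ± 2.0 to 4.34 ± 0.421, and its relative Sfxn3 from 27.0 ± 1.01 in group D to 1.83 ± 0.101 in group C. Sardh, the sarcosine dehydrogenase, stood at 7.99 ± 1.02 in group A and 0.16 ± 0.12 in group B. These 4 also fell on the median-ratio scale. Mat2a, of the same enzyme as Mat2b, rose from 62.3 ± 6.51 in group A to 119 ± 6.70 in group B (log2 0.92, adjusted p = 1.10e-07, limma). The cytosolic Shmt1 was at 7.81 ± 1.74 in group A and 7.58 ± 0.691 in group B, a log2 difference of −0.02 (adjusted p = 0.878).

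Of 28 other amino acid transporters 14 were tested. With TCA alone 5 were higher and 2 lower (limma), beside 10.5% and 11.5% of all genes. In group B vs. A 6 were higher and 7 lower with Cu/ES, beside 20.1% and 72.0% of all genes. On the median-ratio scale 10 were higher and 3 lower in that comparison, beside 44.0% and 43.8%. Slc7a11, the cystine importer of glutathione synthesis, was at 20.1 ± 2.23 FPKM in group A and rose to 37.6 ± 2.76 in group B (log2 0.87, adjusted p = 3.46e-05) and to 37.1 ± 0.811 in group D (log2 0.85, adjusted p = 0.00117). In group C it was at 44.6 ± 10.7. Slc38a10 fell from 69.6 ± 3.13 in group A to 14.6 ± 0.516 in group B, and Slc38a6 from 4.72 ± 0.438 to 0.413 ± 0.0948. Slc1a2, a glutamate importer, rose from 0.0146 ± 0.00394 to 2.26 ± 0.226 between the same groups. Slc3a1, the relative of Slc3a2 that serves cystine and basic amino acid transport, rose from 1.08 ± 0.302 in group B to 3.59 ± 0.714 in group C.

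All 25 listed genes of the ATF4 arm were tested, and with TCA alone 13 were higher and 0 lower (limma), against the 10.5% of all genes given above. At an unadjusted p under 0.05 limma had 1 lower, and limma-voom on recovered reads called 1 lower after adjustment. The list's median was 0.35. Atf4 itself was at 251 ± 5.13, 172 ± 6.69, 216 ± 17.6 and 366 ± 18.2 FPKM in groups A to D. It rose in group D vs. A by 0.54 on the log2 scale (adjusted p = 2.02e-04) and fell in group B vs. A by 0.54 (adjusted p = 2.26e-06), where on the median-ratio scale it was higher by 0.79. Asns, the asparagine synthetase, stood at 105 ± 11.8, 65.4 ± 7.27, 67.3 ± 6.07 and 134 ± 12.3 in groups A to D, and its difference in group B vs. A was −0.68 in FPKM and 0.65 on the median-ratio scale. Atf5 rose from 51.2 ± 7.65 in group A to 130 ± 9.66 in group D and was at 4.38 ± 0.661 in group B and 7.31 ± 0.388 in group C. With Cu/ES 9 of the 25 were higher and 14 lower in group B vs. A, beside 20.1% and 72.0% of all genes, and on the median-ratio scale 17 were higher and 8 lower, beside 44.0% and 43.8%. Atf3 rose from 8.06 ± 1.07 to 460 ± 27.9 there and Ppp1r15a, which helps to reverse the phosphorylation of eIF2α, from 53.8 ± 10.3 to 873 ± 29.8. Pck2, the mitochondrial form of phosphoenolpyruvate carboxykinase, fell from 69.7 ± 3.86 to 3.89 ± 0.316.

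Of 25 genes for amino acid sensing upstream of mTORC1 23 were tested. TCA alone raised 1 and lowered 6 (limma), beside 10.5% and 11.5% of all genes. With Cu/ES 5 were higher and 17 lower in group B vs. A, and scaled by median ratio 9 were higher and 10 lower. Both stood near the shares of all genes, 20.1% and 72.0% in FPKM and 44.0% and 43.8% by median ratio. Rraga, a Rag GTPase of the lysosomal surface, fell from 36.6 ± 2.06 FPKM in group A to 2.64 ± 0.494 in group B. Sesn3 fell from 11.5 ± 0.537 to 0.779 ± 0.173 and Castor2 from 7.23 ± 0.577 to 0.259 ± 0.148 between the same groups. Sesn2, on this list and on that of the ATF4 arm, rose there from 29.5 ± 1.61 to 137 ± 9.21. Nprl3, a subunit of the GATOR1 complex, fell from 16.9 ± 0.314 in group D to 1.75 ± 0.255 in group C. Lamtor2, a subunit of the Ragulator complex, fell from 19.3 ± 0.656 in group B to 9.19 ± 1.68 in group C. The 4 lists were written with earlier results of these data known, and their counts describe them without a test of the list.

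For each member, the tested gene with the most similar pattern was taken by the distance between centred log2(FPKM + 1) values over the 12 libraries. For Phgdh this was Chic2, at a distance of 0.254, where the median gene lay at 3.53 and the nearest other member, Psat1, at 0.867. For Slc7a5 it was Adra1b at 0.361, with Psph as the nearest member at 1.75. Slc7a5 thus lay farther from its nearest member than any of the other 9, which were at 0.325 to 0.867. The nearest genes were Usp39 for Slc3a2, Cyb5b for Slc1a5, Psme3 for Slc38a2, Srpk1 for Slc7a1, Ube2j2 for Psat1, Acot9 for Psph, Srprb for Shmt2 and Pgs1 for Mthfd2, at 0.223 to 0.402.

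Within groups the members shared a pattern over libraries. Replicate 2 was the lowest library for 10, 8, 5 and 7 of the 10 genes in groups A to D. Its median deviation over the members was −0.07, −0.05, −0.05 and −0.08 on the log2 scale in groups A to D. Over all genes tested it was −0.03 in group C, near the members' value, and between −0.0069 and 0.0044 in the other groups. The coefficient of variation over 3 libraries ran from 0.553% for Slc1a5 in group A to 15.6% for Slc7a1 in group C.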

How the data were processed

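RNA of AML12 cells was measured in 12 libraries, grouped by treatment as the sample labels give it. The authors deposited FPKM values, 1 column per library. Per the labels, reads were processed with fastp, HISAT2 and HTSeq on GRCm39, and versions were not given in the sources used here. The steps between low values gave back read numbers and library sizes: 22210 of 22212 genes above 0 in at least 2 libraries gave whole reads within 0.05 in all of them. Every column was used.

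One model with the 4 groups was fitted to log2(FPKM + 1) of the 10615 genes that averaged 1 FPKM or more, by limma 3.58.1 in R 4.3.3 with a mean-variance trend and 8 residual degrees of freedom. Tests were two-sided, adjusted by the Benjamini-Hochberg method over all genes tested and called at 0.05. Fold changes are on the log2(FPKM + 1) scale, which understates those of low genes. Single values were compared by exact permutation tests: 3 libraries against 3 cannot go below p = 0.1, and permuting within each TCA level cannot go below 0.005. The study itself used a count model. Here the deposited unit was tested with limma, and recovered reads only as an alternative. The steps were tested on simulated data. Members and lists were chosen with earlier results of these data known.

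Alternatives were TPM, median-ratio and quantile scaling, a pseudocount of 0.1, no filter or a filter at 5 FPKM, no trend, only the groups compared, limma-voom on recovered reads, the replicate number as a block, and each library left out. Same-numbered libraries of groups A and B deviated together across genes (r = 0.173, 0.174 and 0.142), while in each other comparison at least 1 such pair was under 0.1. Libraries A2 and D2 reached 0.579, and the unlike-numbered A3 and D1 reached 0.367. The labels name no batch, so these values do not settle whether libraries were paired. Genes named are the members, from each list up to 3 genes per comparison with the largest changes past both thresholds without overlap, Atf4, Slc7a11, Asns, Shmt1 and Mthfd1, and the gene nearest to each member in pattern. Mat2a and Sesn2 are given besides, to set risen genes beside fallen ones of the same lists. Promoter windows are RefSeq's of GRCm38.p6, not the build of the values. Tables came from pandas 2.3.3 and scipy 1.17.1 in Python 3.11.15, and plots from matplotlib 3.10.9.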

Additional observations from a re-analysis of the deposited data

Results flagged for a closer look

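For all 10 genes the change with TCA was not the same when Cu/ES was present, by limma's interaction term. The difference, TCA with Cu/ES minus TCA without it, was −0.90 on the log2 scale for Shmt2, −0.85 for Slc7a5, −0.80 for Slc3a2, −0.78 for Psph, −0.72 for Mthfd2, −0.69 for Phgdh and −0.55 for Psat1. It was smaller for the remaining transporters, at −0.40 for Slc7a1, −0.36 for Slc38a2 and −0.27 for Slc1a5. All 12 libraries enter this term. Those 3 transporters did not pass with TPM.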

How the results depend on the processing

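In group D vs. A all 220 refits of single genes kept direction and call. Of 220 refits in each other comparison, 199 kept both in group B vs. A, 206 in C vs. D and 201 in C vs. B. Of the interaction's refits 194 kept both and 16 lost the call. The number of members called was 6 to 8 with each library left out in group B vs. A (7 with all), 9 in C vs. D, 6 to 9 in C vs. B (7 with all), 10 in D vs. A and 8 to 10 for the interaction. With quantile normalization 4 were called in group C vs. B. The replicate block changed no call of a member, with 7 called in group B vs. A, 9 in C vs. D, 7 in C vs. B, and 10 in D vs. A and in the interaction. The cause of these changes was not tested.

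Directions turned with the scaling. In group B vs. A the median-ratio scale gave 0.14 for Slc7a5, 1.21 for Slc1a5, 1.01 for Psph and 1.17 for Mthfd2, TPM gave −0.34 for Slc7a1 and −0.15 for Shmt2, quantile normalization gave 0.49 for Psph and −0.042 for Shmt2, and Slc7a1 was between −0.021 and 0.064 with each library left out, below 0 without group B replicate 1. In group C vs. D the median-ratio scale gave 0.95 for Slc3a2, 0.997 for Slc1a5, 0.99 for Slc7a1, 0.29 for Psph, 0.70 for Shmt2 and 0.49 for Mthfd2, TPM gave −0.031 for Slc38a2 and −0.26 for Psat1, and quantile normalization gave −0.042 for Slc38a2, −0.18 for Phgdh and −0.35 for Psat1. Over both TCA levels the difference with Cu/ES on the median-ratio scale was 1.33 for Slc3a2, 1.105 for Slc1a5, 1.16 for Slc7a1, 0.65 for Psph, 1.123 for Shmt2 and 0.83 for Mthfd2, and −0.022 for Psat1 with TPM. Ratios within a library do not change with 1 factor per library, as in TPM and median-ratio scaling. Quantile normalization is no such factor, and the ratios were not computed on it. Each member had at least 1951 reads in a library.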
